A study of Mus musculus with 17 samples.

Results

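Genes of lipid- and scar-associated macrophages were measured by RNA sequencing in Kupffer cells (KCs), macrophages that reside in the liver. The set holds 10 of the 25124 genes listed in each of 3 expression tables: *Spp1*, *Trem2*, *Gpnmb*, *Cd9*, *Mmp12*, *Fabp5*, *Lgals3*, *Itgax*, *Lpl* and *Cd63*. It was chosen by name, partly because *Spp1* was higher with tumour and *Mmp12* lower with *Id3* deletion. The values of *Spp1* in the tumour comparisons and of *Mmp12* in the *Id3* comparison are therefore given as a description with no test, and the counts of called genes below refer to the other 9.

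KCs were sorted from mouse liver in 17 samples. Of the TIM4+CD206+ KCs, the main subset, 3 samples came from untreated tumour-free mice and 3 from mice injected with KPC tumour cells through the portal vein 2 weeks earlier, and the minor TIM4+CD206 high KCs were sampled in the same way, with 3 and 3. The KPC line comes from a mouse pancreatic tumour, and the sort kept CD45+ cells and left out lymphoid cells and neutrophils by their surface markers. The remaining KCs were untreated and from livers without tumour, 3 samples with the genotype *Id3* f/f (control) and 2 with the genotype *Clec4f* cre*Id3* f/f (deleted). Both genotypes carry the floxed *Id3* allele, and Cre is driven by *Clec4f*, a gene of KCs, so that deletion is restricted to cells that have switched it on. The labels of these samples give no strain, age or sex, and values are normalised read counts per gene on a log2 scale, from which the depth of each sample cannot be read.

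Macrophages that take up lipid and cell debris, in fat tissue, fatty liver, fibrosis and tumours, share a programme that depends on the lipid receptor TREM2. They load, break down and export lipid in an enlarged lysosomal compartment, and they secrete osteopontin (*Spp1*) and matrix enzymes. In scarred liver, cells with high TREM2 and CD9 collect at fibrotic septa and derive mostly from recruited monocytes.

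The samples carried the markers of KCs in every group. *Timd4*, which encodes TIM4, lay between 13.76 and 15.25 in all 17 samples. *Mrc1*, which encodes CD206, was 12.37 to 13.18 in TIM4+CD206+ KCs and 14.96 to 16.19 in TIM4+CD206 high KCs, in the order of the sort, although the tables were normalised separately and the gap was not tested. *Clec4f* was above 16.1 in every sample. Endothelial markers, in units of 1000 normalised counts, summed to 13.7 to 36.3 in tumour-free TIM4+CD206+ and 276 to 417 in tumour-free TIM4+CD206 high samples. KC markers summed to 2625 to 3907 and 1362 to 1873 in the same samples. The part of endothelial RNA in the level of *Mrc1* was not tested.

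All 10 genes passed the filter on low values in all 3 tables. To compare them with each other, levels were divided by the length of their merged exons (log2 of the length in kb was subtracted from the log2 value). The lengths run from 0.987 kb for *Fabp5* to 4.51 kb for *Gpnmb*, and the levels are given as log2 per kb. In tumour-free TIM4+CD206+ KCs, *Lgals3* (galectin-3, a lectin that gathers on damaged lysosomes) stood highest at 15.27 ± 0.34 log2 per kb (SD, n = 3), within the top 0.490% of 13054 genes with a known length. *Lpl* (lipoprotein lipase) followed at 11.78 ± 0.27 and *Trem2* at 11.37 ± 0.30, and each of these 3 neighbours differed from the next by more than their SDs.

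Below them in the same tumour-free KCs, *Cd9* at 10.71 ± 0.24 log2 per kb was not separated from *Fabp5* at 10.24 ± 0.75. *Cd63*, *Spp1*, *Mmp12* and *Itgax* formed a run from 9.40 to 8.10 log2 per kb in which no neighbour differed beyond the larger SD. *Gpnmb* was lowest at 6.89 ± 0.39 log2 per kb, within the top 47.4% of the genes. Thus the lectin and the lipase were among the abundant messages of resting KCs. *Spp1* and *Mmp12* were within the top 26.2% and 32.1% of the genes, and *Gpnmb* was near the middle of the range.

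The order in tumour-free TIM4+CD206 high KCs also began with *Lgals3* (14.00 ± 0.27 log2 per kb) and *Lpl* (13.16 ± 0.47) and ended with *Gpnmb* (6.93 ± 1.33) and *Itgax* (6.99 ± 0.30), which were not separated. *Trem2* took position 7 there and position 3 in the main subset. In *Id3* f/f KCs the order was *Lgals3* (14.70 ± 0.22), *Lpl* (12.86 ± 0.15), *Cd9* (9.86 ± 0.15), *Fabp5*, *Trem2*, *Mmp12*, *Cd63*, *Spp1*, *Gpnmb* and *Itgax* (3.84 ± 0.11 log2 per kb). *Trem2*, *Mmp12* and *Cd63* were not separated beyond their spread in this group. *Lgals3* and *Lpl* thus led in the untreated group of every table, and *Itgax* and *Gpnmb* took the lowest places in every one, in changing order.

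The first question was how the genes changed in TIM4+CD206+ KCs of tumour-bearing livers. *Gpnmb*, *Mmp12*, *Cd63*, *Cd9*, *Fabp5*, *Trem2* and *Itgax* rose, and *Lgals3* and *Lpl* did not pass the test. Thus 7 of 9 were higher at an adjusted p under 0.05 and 0 lower, where 2.55% of the 13233 genes tested were higher and 0.998% lower (limma, 337 and 132 genes, 469 in all). The split was 617 higher and 409 lower with the replicate number as a block, and 427 higher and 595 lower without tumour-free replicate 2, and 203 to 222 higher and 28 to 41 lower without each other sample in turn. For 8 of the 9 the groups had no overlap, as for 23.4% of all tested genes. The median log2 fold change was 1.79 over the 9 and 0.02 over all tested genes. Since the set was chosen partly on this comparison, nothing is read from these counts.

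Among the secreted proteins, *Spp1* encodes osteopontin, a phosphoprotein that binds integrins and CD44. It was at 10.17, 8.77 and 9.63 log2 in the 3 tumour-free samples and at 13.61, 13.70 and 13.13 in the 3 tumour-bearing ones. All tumour-bearing samples were above all tumour-free ones, with replicate 2 the lowest of the tumour-free samples. The difference of 3.95 ± 0.34 (SE) was the 18th largest rise of the 13233 genes and belongs to the values on which the set was selected.

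*Mmp12*, macrophage elastase, degrades elastin and other matrix proteins. It was at 10.22, 9.77 and 10.72 log2 in tumour-free samples and at 12.78, 13.19 and 13.30 in tumour-bearing ones. The groups were apart by more than 2 log2 units, and the log2 fold change was 2.85 ± 0.26 (SE, limma, adjusted p = 0.000806, higher in 3 of 3 samples). Its exons overlap those of *Mmp1b* on the other strand, which is listed without reads in all 3 tables.

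Of the surface receptors, TREM2 binds lipids and lipoproteins and signals through the adaptor TYROBP. *Trem2* was at 11.27, 11.87 and 11.53 log2 without and at 13.45, 13.34 and 13.13 with tumour. The samples fell into separate ranges and rose by 1.74 ± 0.19 (adjusted p = 0.00212). *Itgax*, which encodes the CD11c chain of a complement receptor, was at 10.15, 9.85 and 10.63 without and at 11.30, 11.47 and 11.19 with tumour. Its groups did not overlap either, but the rise of 1.10 ± 0.22 (adjusted p = 0.0370) was close to the threshold.

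GPNMB is a transmembrane glycoprotein of lysosomes and the cell surface that is induced under lysosomal stress. *Gpnmb* was at 9.10, 8.67 and 9.45 log2 in tumour-free samples and at 11.99, 12.81 and 12.12 in tumour-bearing ones. The lowest tumour-bearing sample was more than 2 units above the highest tumour-free one, and the rise of 3.23 ± 0.28 (adjusted p = 0.000594) was the largest among the 9.

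The tetraspanins CD9 and CD63 organise membrane domains, CD9 at the cell surface and CD63 in late endosomes and lysosomes, and both are carried by exosomes. *Cd9* was at 11.004, 10.76 and 11.24 log2 without tumour and at 13.32, 13.05 and 12.99 with tumour. *Cd63* was at 9.98, 9.30 and 10.53 without and at 12.87, 12.66 and 12.65 with tumour. Neither gene had overlapping groups, and the tumour-bearing samples were close to each other. *Cd9* rose by 2.12 ± 0.18 (adjusted p = 0.000594) and *Cd63* by 2.79 ± 0.29 (adjusted p = 0.00151). The genome holds processed pseudogenes named for both, *Cd9-ps* and *Cd63-ps*, and how reads shared with them were counted was not given in the sources used here.

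The genes of lipid handling and the lectin were less uniform. *Fabp5*, a cytosolic carrier of fatty acids, was at 10.72, 9.36 and 10.58 log2 without and at 12.10, 12.06 and 11.87 with tumour. Tumour-free replicate 2 was low, and without overlap between groups the rise was 1.79 ± 0.34 (adjusted p = 0.0271). *Fabp5* also has a processed pseudogene, *Fabp5l2*. *Lpl* was at 14.08, 13.53 and 13.84 without and at 14.18, 13.94 and 14.12 with tumour, with overlapping groups and a difference of 0.26 ± 0.18 (adjusted p = 0.529). *Lgals3* was at 16.20, 15.55 and 16.08 without and at 16.36, 16.31 and 16.42 with tumour. Its groups were narrowly apart, and the difference of 0.42 ± 0.20 did not pass (adjusted p = 0.331).

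The calls of *Itgax* and *Fabp5* in TIM4+CD206+ KCs changed with single samples and settings. *Itgax* had an adjusted p of 0.114 without tumour-free replicate 1 and of 0.140, 0.140 and 0.111 without tumour-bearing replicates 1, 2 and 3, and its call held without tumour-free replicates 2 (0.0262) and 3 (0.0288), with a range of 0.00895 to 0.140 over all settings. It was also not called with no filter (adjusted p = 0.0569), with no mean-variance trend (0.0533) and with median centring (0.0662). *Fabp5* had an adjusted p of 0.0612 without tumour-free replicate 3 and of 0.124, 0.103 and 0.0927 without tumour-bearing replicates 1, 2 and 3, and its call held without tumour-free replicates 1 (0.0319) and 2 (0.00194), with a range of 0.00134 to 0.124. *Lgals3* passed with quantile normalization alone (adjusted p = 0.0483, range 0.0483 to 0.632). Replicate numbers were taken to pair the samples of this subset, and with the number as a block 1026 genes were called in place of 469, while the count over the 9 was again 7.

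**Figure D1:**
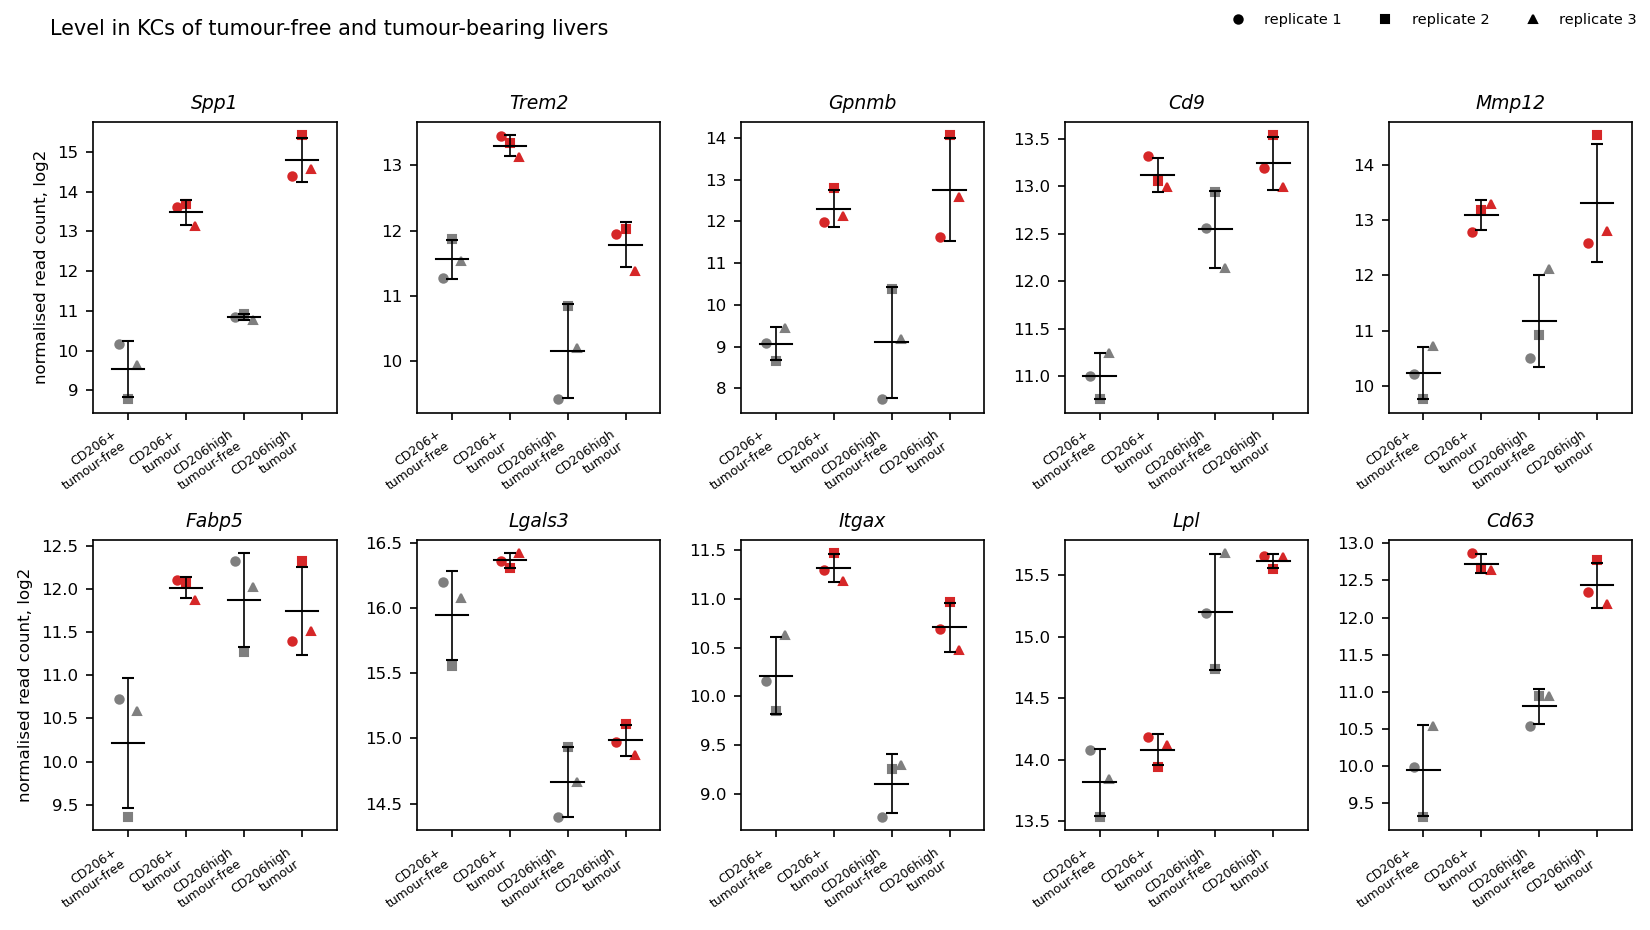
Level of each of the 10 genes (log2 of the normalised read count) in every sample of the TIM4+CD206+ subset and of the TIM4+CD206 high subset of KCs, with symbols for replicates 1 to 3, and the mean and SD as lines. The 2 subsets were normalised separately, and axes differ between genes. *Spp1* and *Gpnmb* are higher in all tumour-bearing samples of both subsets, while *Lpl* ranges overlap between tumour-free and tumour-bearing samples in both.

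In the minor TIM4+CD206 high KCs, *Gpnmb*, *Trem2*, *Cd63* and *Itgax* rose with tumour, and the other members did not pass. These are 4 of 9 higher at an adjusted p under 0.05 and 0 lower, where 5.21% of the 14561 genes tested were higher and 2.03% lower (limma, 758 and 295 genes, or 664 and 518 with quantile normalization). The numbers depended on single samples, with 2559 higher and 1075 lower without tumour-free replicate 2 and 489 and 90 without tumour-bearing replicate 1, and the members called were then 5 and 3. For 6 of the 9 the groups had no overlap, as for 30.7% of all tested genes. The median log2 fold change was 1.60 over the 9 and 0.03 over all tested genes. Median centring moved that of all genes from 0.03 to −0.13, so that with centring rises are smaller and falls larger by that shift. Again, the set was selected partly on this contrast and nothing is read from the counts.

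*Spp1* was at 10.85, 10.92 and 10.77 log2 in tumour-free TIM4+CD206 high samples and at 14.40, 15.43 and 14.57 in tumour-bearing ones. The tumour-free samples were tightly grouped and the tumour-bearing ones more than 3 units above them. The difference, one of those that chose the set, was 3.96 ± 0.27 (SE). Per length, *Spp1* moved from place 6 to place 2 among the 10, at 14.08 ± 0.55 log2 per kb, where it was separated neither from *Lgals3* (14.32 ± 0.12) nor from *Lpl* (13.58 ± 0.06).

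*Cd63* was at 10.53, 10.94 and 10.94 log2 without and at 12.35, 12.77 and 12.18 with tumour in this subset. *Itgax* was at 8.76, 9.26 and 9.30 without and at 10.69, 10.97 and 10.47 with tumour. For both genes every tumour-bearing sample was above every tumour-free one. *Cd63* rose by 1.63 ± 0.21 (adjusted p = 0.00408) and *Itgax* by 1.60 ± 0.23 (adjusted p = 0.00588), and both calls held without any sample in turn and in all other settings, with adjusted p up to 0.0255 and 0.0400.

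*Gpnmb* was at 7.74, 10.39 and 9.18 log2 without tumour and at 11.62, 14.07 and 12.58 with tumour in TIM4+CD206 high KCs. *Trem2* was at 9.41, 10.84 and 10.21 without and at 11.94, 12.03 and 11.38 with tumour. The tumour-free samples were spread over more than 1 unit for both genes, with replicate 1 lowest and replicate 2 highest, and still lay below all tumour-bearing samples. *Gpnmb* rose by 3.65 ± 0.79 (adjusted p = 0.0362) and *Trem2* by 1.63 ± 0.37 (adjusted p = 0.0438).

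Both calls changed with single samples and with the filter, and held without tumour-free replicate 2 (adjusted p = 0.00534 for *Trem2* and 0.00795 for *Gpnmb*). For *Trem2* the adjusted p was 0.0942 and 0.0843 without tumour-free replicates 1 and 3, and 0.174, 0.182 and 0.0772 without tumour-bearing replicates 1, 2 and 3. For *Gpnmb* it was 0.114 and 0.0846 without tumour-free replicates 1 and 3 and 0.118 and 0.106 without tumour-bearing replicates 2 and 3, and the call held without tumour-bearing replicate 1 (0.0428). With no filter it was 0.0596 for *Trem2* and 0.0508 for *Gpnmb*, and with the stricter filter 0.0610 and 0.0517. Over all settings it ranged from 0.00534 to 0.182 for *Trem2* and from 0.000323 to 0.118 for *Gpnmb*.

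*Mmp12* was at 10.50, 10.91 and 12.12 log2 in tumour-free and at 12.58, 14.54 and 12.81 in tumour-bearing TIM4+CD206 high samples. The groups did not overlap, but tumour-free replicate 3 came within 1 unit of the lowest tumour-bearing sample, and the difference of 2.13 ± 0.60 did not pass (adjusted p = 0.0891). *Cd9* was at 12.56, 12.94 and 12.13 without and at 13.19, 13.54 and 12.99 with tumour. Its groups were narrowly apart, and its difference of 0.70 ± 0.25 did not pass (adjusted p = 0.170), except without tumour-free replicate 2 (adjusted p = 0.0285, range 0.0285 to 0.477).

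*Fabp5* was at 12.33, 11.27 and 12.02 log2 without and at 11.39, 12.32 and 11.51 with tumour in this subset, with overlapping groups and a difference of −0.13 ± 0.35 (adjusted p = 0.845). *Lgals3* ranged from 14.40 to 14.93 without and from 14.87 to 15.11 with tumour, and *Lpl* from 14.74 to 15.68 without and from 15.55 to 15.65 with tumour. Both overlapped between groups, and their differences of 0.32 ± 0.19 and 0.41 ± 0.25 did not pass (adjusted p = 0.364 and 0.379). *Mmp12*, *Fabp5* and *Cd9* were thus called in the main subset and not in the minor one. Whether the tumour effect of any gene differed between subsets was not tested, since the tables were normalised separately.

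**Figure D2:**
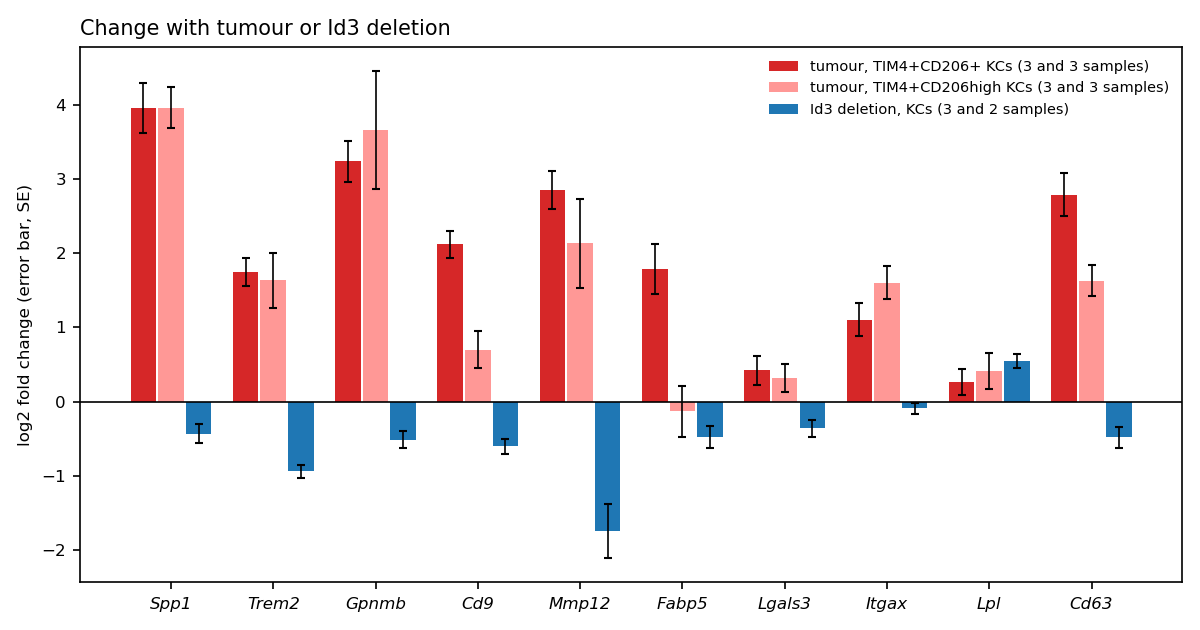
Log2 fold change of each gene with tumour in TIM4+CD206+ KCs (3 and 3 samples), with tumour in TIM4+CD206 high KCs (3 and 3) and with *Id3* deletion (3 and 2), with the SE as error bars. The tumour bars reach 3.95 and 3.96 for *Spp1*, which helped to select the set together with *Mmp12* in the *Id3* comparison (−1.74), and *Lpl* is the only gene with a positive bar for *Id3* deletion (0.55).

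Markers of tumour epithelium moved with these changes. Of 19 epithelial tumour markers, 18 were tested in each tumour table, and 17 were higher in TIM4+CD206+ and 18 in TIM4+CD206 high KCs, with 0 lower (median log2 fold changes of 3.89 and 4.96). Their summed level, on the linear scale and in units of 1000 normalised counts as all sums below, was 2.74, 2.13 and 3.998 in tumour-free and 52.6, 45.6 and 45.7 in tumour-bearing TIM4+CD206+ samples. It was 2.46, 2.94 and 2.26 against 65.8, 68.3 and 62.9 in TIM4+CD206 high samples. The summed markers were thus higher in all 6 tumour-bearing samples, and no marker of the list was without reads. Their most abundant gene was *Krt8*, which was at 9.92, 9.20 and 10.37 log2 against 13.75, 13.76 and 13.53 in the main subset. *Krt19* rose by 5.25 ± 0.29 and 5.36 ± 0.37 log2 (adjusted p = 9.56e-05 and 0.000183).

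*Spp1*, *Cd9*, *Cd63* and *Lgals3* are also known to be expressed in ductal epithelium. The part of tumour RNA in the rises of these and the other members was not tested. For bulk RNA of sorted cells, fewer cells of a type and less RNA per cell cannot be told apart.

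Markers of recruited myeloid cells moved as well. Of 12 monocyte markers, 5 were higher and 0 lower in each subset, led by *Chil3*, *Ccr2* and *Cx3cr1* in TIM4+CD206+ KCs (3.10 ± 0.29, 2.57 ± 0.37 and 2.43 ± 0.29 log2) and by *Chil3*, *Vcan* and *Cx3cr1* in TIM4+CD206 high KCs. Their summed level was 636, 467 and 386 without and 599, 593 and 711 with tumour in the main subset, and 246, 539 and 270 against 278, 335 and 332 in the minor one. The sums overlapped in both subsets, and *Lyz2*, which KCs express too, was the most abundant gene at 18.98 and 18.11 log2. Over the 12, positive and negative changes numbered 12 and 0 in the main and 10 and 2 in the minor subset, with medians of 1.56 and 0.95 log2. The groups of 7 and 7 markers had no overlap, as for 23.4% and 30.7% of all tested genes. None of the monocyte markers was without reads in either table.

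Of 12 neutrophil markers, 5 were higher and 0 lower in each subset, with *S100a8* and *S100a9* up by 2.48 ± 0.29 and 2.34 ± 0.30 log2 in the main subset and *Cxcr2* up by 2.40 ± 0.29 in the minor one. Their sum, not tested, was 10.7, 8.56 and 19.0 without and 36.3, 33.4 and 33.1 with tumour in the main subset and 6.03, 6.61 and 13.8 against 26.8, 23.4 and 17.1 in the minor one. *Csf3r* was the most abundant of them, and no neutrophil marker lacked reads. Of 11 dendritic cell markers only *Ccl17* was higher in the main subset (1.76 ± 0.25) and 0 in the minor one, with *Ccr7* and *Clec10a* the most abundant. Their sum lay between 4.49 and 6.43 in all 12 samples.

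Markers of other liver cells were read in the same way. Of 12 hepatocyte markers, 9 and 7 were lower and 0 higher in the main and minor subsets, with *Apoa1* and *Alb* the most abundant, and their sum was 28.7 to 37.0 against 9.03 to 13.03 in the main and 32.0 to 38.5 against 9.14 to 11.4 in the minor subset. Of 12 endothelial markers, 0 and 6 were lower, with sums of 13.7 to 36.3 against 11.7 to 17.1 in the main and 276 to 417 against 164 to 200 in the minor subset, where *Clec4g* was most abundant. Of 12 stellate cell markers 0 and 3 were lower, and of 10 cholangiocyte markers 5 and 8 were higher. Among 10 markers of T and NK cells 0 were called, while of 8 B cell markers 3 were lower and 0 higher in each subset. The B cell sums were 9.31 to 9.66 against 4.37 to 4.92 in the main and 3.88 to 4.52 against 2.19 to 2.25 in the minor subset. Of 16 KC markers, *Csf1r*, *Adgre1* and *Timd4* were lower in the main subset (−0.94 ± 0.19, −0.93 ± 0.18 and −0.75 ± 0.16 log2) and 0 were called in the minor one. Over the 16, positive and negative changes numbered 1 and 15 in the main and 2 and 14 in the minor subset, with medians of −0.41 and −0.33 log2. Their sum was 2625 to 3907 against 2125 to 2277 in the main and 1362 to 1873 against 1196 to 1339 in the minor subset. The part of these cells in the values of the 10 genes was not tested.

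**Figure D3:**
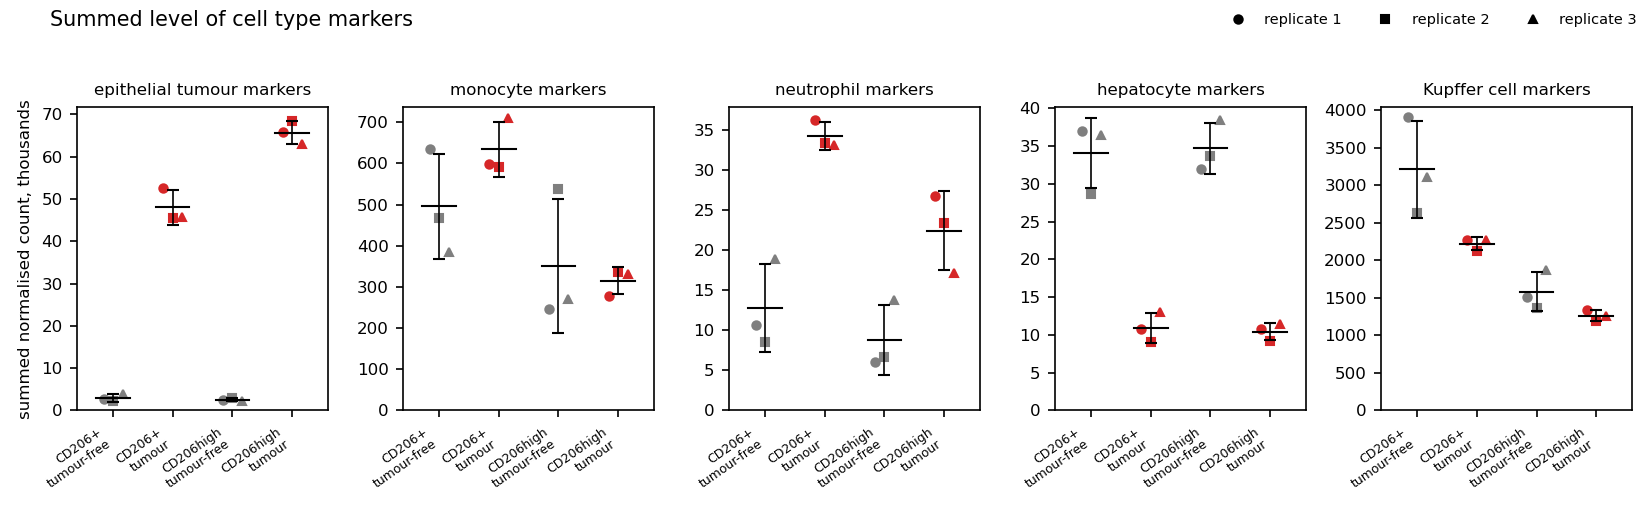
Summed level of marker lists on the linear scale (units of 1000 normalised counts) in every sample of the TIM4+CD206+ subset and of the TIM4+CD206 high subset of KCs, with symbols for replicates, and mean and SD as lines. Epithelial tumour markers are at 2.13 to 3.998 in tumour-free and at 45.6 to 68.3 in tumour-bearing samples, while the sum of monocyte markers, of which *Lyz2* is the most abundant, overlaps between groups.

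Lists of pathway partners and relatives of the 10 genes were read in the same comparisons. All list calls, including those of marker lists, came from fits without the replicate block. More genes were called with that block in TIM4+CD206+ KCs, and list counts with it are not given here. Among 29 other genes of lipid-associated macrophages, 6 rose and 0 fell in TIM4+CD206+ KCs, where the largest rises were those of *Atp6v0d2*, a proton pump subunit (2.25 ± 0.32 log2), *Lgals1* (1.72 ± 0.25) and *Apoc2* (1.64 ± 0.19). In TIM4+CD206 high KCs 2 rose, *Atp6v0d2* (3.00 ± 0.57) and *Anxa2* (0.85 ± 0.15). The median over the 29 was 0.27 in each subset. Over all tested genes of the main and minor subsets it was 0.02 and 0.03. Of these genes, 2.55% and 5.21% were higher, and 0.998% and 2.03% lower. *Apoe*, the main apolipoprotein of the programme, was at a mean of 18.30 against 18.53 log2 in the main and 17.65 against 19.18 in the minor subset and did not pass (adjusted p = 0.929 and 0.367).

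Of 12 partners of TREM2 signalling, 0 were called in either subset. *Tyrobp*, its adaptor, was at a mean of 16.41 against 16.49 log2 in the main and 15.14 against 14.77 in the minor subset (adjusted p = 0.924 and 0.301), so that *Trem2* rose beside an adaptor with no called change. Of 10 osteopontin receptors, 0 were called in the main subset and *Itgb6*, an integrin chain of epithelia, rose in the minor one (3.66 ± 0.22). *Cd44*, the most abundant of them, was at 14.18 against 13.61 and 14.35 against 14.28 log2 (adjusted p = 0.161 and 0.890). Of the integrin chains that pair with CD11c (*Itgb2*) or resemble it (*Itgal*, *Itgam* and *Itgad*), 0 were called in either subset.

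Beside *Mmp12*, 16 metalloproteinases and inhibitors were listed. In the main subset *Mmp8* (1.75 ± 0.27 log2), *Timp1* (1.42 ± 0.24) and *Mmp13* (1.34 ± 0.24) rose. In the minor subset *Mmp8* (2.30 ± 0.43), *Mmp15* (1.91 ± 0.25) and *Mmp25* (1.09 ± 0.23) rose, and *Timp3* fell (−1.55 ± 0.26). *Mmp8* is at the same time a marker of neutrophils. Among partners of lipoprotein lipase and fatty acid carriers, *Fabp1* fell in the main subset (−2.08 ± 0.30), and *Fabp1* (−2.90 ± 0.39) and *Gpihbp1* (−1.13 ± 0.22) fell in the minor one. *Fabp1* is a gene of hepatocytes, and *Gpihbp1* anchors the lipase on endothelium.

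The relatives of *Cd9*, *Cd63* and *Lgals3* contained further epithelial genes. Of 12 other tetraspanins, only *Tspan8* rose in the main subset (4.01 ± 0.31 log2), and in the minor one *Tspan8* rose (5.29 ± 0.24) and *Tspan7* fell (−0.98 ± 0.18). Of 8 other galectins, 4 rose in each subset, with *Lgals4*, *Lgals6* and *Lgals2* leading in the main one (5.15 ± 0.31, 5.14 ± 0.31 and 4.83 ± 0.23). The same 3 led in the minor one (4.58 ± 0.18, 4.69 ± 0.18 and 5.21 ± 0.28). *Tspan8* and *Lgals4* also stand on the list of epithelial tumour markers. *Cd81*, the most abundant tetraspanin, had differences of −0.72 and −0.50 that did not pass (adjusted p = 0.0803 and 0.247).

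The genes with the pattern most like that of *Spp1* were *Cldn7*, *Mcpt2*, *Anxa2*, *Elf3* and *Paqr5*, by the mean of Pearson's r over the 6 samples of each tumour table (0.992, 0.990, 0.989, 0.989 and 0.987, of 13109 genes tested in both). Among the other members, *Cd63* came closest (mean r of 0.980, place 24), then *Itgax* (0.957) and *Gpnmb* (0.946). *Fabp5* had the lowest mean (0.457), with an r of 0.965 in the main and −0.0521 in the minor subset. *Cldn7* and *Elf3* are epithelial markers. These values mainly carry the difference between the tumour-free and tumour-bearing groups and describe these samples only.

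The remaining comparison addressed what KCs lose or gain without ID3, an inhibitor of basic helix-loop-helix transcription factors that is needed for the KC fate. *Id3* itself was at 12.58, 12.46 and 12.82 log2 in control samples and at 9.83 and 9.82 in deleted ones, in the direction of the labels (−2.80 ± 0.11, limma, adjusted p = 1.40e-06). *Clec4f*, the gene that drives Cre, was lower too (−1.52 ± 0.06, adjusted p = 1.80e-06). Only the deleted samples carry Cre, so that the Cre allele and the loss of *Id3* cannot be told apart for this gene. *Timd4* and *Mrc1* had differences of 0.01 and 0.08 that did not pass.

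The genotypes also differed in sex-linked genes. *Xist* was at 6.38, 6.33 and 6.36 log2 in control samples and at 9.84 and 9.76 in deleted ones, and the Y-linked *Ddx3y* differed by −2.44 ± 0.09 in the opposite direction. Sex and genotype therefore cannot be told apart in this comparison, for the members below as for any gene.

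After *Id3* deletion *Trem2*, *Cd9* and *Gpnmb* fell and *Lpl* rose. These are 3 of 9 lower and 1 of 9 higher at an adjusted p under 0.05, where 3.37% of the 12833 genes tested were lower and 3.08% higher (limma, 432 and 395 genes, or 550 and 328 with median centring). Here, too, single samples moved the numbers, to 980 lower and 870 higher without control replicate 3 and to 13 and 4 without deleted replicate 1, with 6 and 0 members called. For 8 of the 9 the groups had no overlap, as for 41.9% of all tested genes. The median log2 fold change over the 9 was −0.47, and that of all tested genes was 0.00142. The comparison helped to select the set, so that nothing is read from these counts.

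*Mmp12* was at 10.59, 10.52 and 9.08 log2 in control samples and at 8.28 and 8.37 in deleted ones. Replicate 3 of the controls stood well below the other control samples, and all 3 were above both deleted samples. The difference of −1.74 ± 0.37 (SE), on which the set was chosen, was the 4th lowest of the 12833 genes. *Mmp9* and *Mmp13*, of the same family, fell by 0.49 and 0.48 on the log2 scale (adjusted p = 0.0237 and 0.0241).

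*Trem2* was at 8.63, 8.54 and 8.59 log2 in control samples and at 7.60 and 7.70 in deleted ones. Both groups were tight and separated by almost 1 unit, and *Trem2* changed by −0.94 ± 0.09 (adjusted p = 0.00102). The call was lost without deleted replicate 1 (adjusted p = 0.0592, range up to this value). The adaptors *Tyrobp* and *Hcst* fell as well (−0.50 ± 0.08 and −0.43 ± 0.10, adjusted p = 0.0117 and 0.0399), while 3 of the 12 signalling partners rose, *Pik3ap1*, *Vav1* and *Inpp5d* (0.69 ± 0.12, 0.54 ± 0.11 and 0.52 ± 0.12).

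*Cd9* was at 10.21, 10.27 and 9.99 log2 in control samples and at 9.56 and 9.55 in deleted ones. *Gpnmb*, near the bottom of the range in these KCs, was at 7.13, 6.75 and 6.83 against 6.44 and 6.35. Neither had overlapping groups. *Cd9* changed by −0.60 ± 0.10 (adjusted p = 0.0140) and *Gpnmb* by −0.51 ± 0.11 (adjusted p = 0.0271), in a table whose transformation understates the changes of low genes such as *Gpnmb*.

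*Lpl* moved the other way. It was at 14.90, 15.06 and 14.75 log2 in control samples and at 15.49 and 15.41 in deleted ones, so that both deleted samples were above all controls, and it rose by 0.55 ± 0.09 (adjusted p = 0.0135). Per length it reached 13.41 ± 0.06 log2 per kb, within the top 0.972% of genes. Among its partners and relatives, *Fabp7*, *Gpihbp1* and *Fabp1* fell (−1.42 ± 0.11, −0.65 ± 0.10 and −0.54 ± 0.13).

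These calls changed when single samples were left out. *Cd9*, *Gpnmb* and *Lpl* lost theirs without control replicate 1 (adjusted p = 0.0630, 0.0623 and 0.0598), without deleted replicate 1 (0.201, 0.240 and 0.244) and without deleted replicate 2 (0.177, 0.241 and 0.170). They held without control replicate 2 (0.0475, 0.0400 and 0.0207) and without control replicate 3 (0.000384, 0.00589 and 0.000334), and their ranges reached up to 0.201, 0.241 and 0.244. *Gpnmb* further had an adjusted p of 0.0633 with no mean-variance trend.

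*Cd63*, *Lgals3*, *Spp1* and *Fabp5* were lower in both deleted samples than in all controls without passing the test. *Cd63* was at 8.58, 8.32 and 8.05 log2 against 7.92 and 7.76 (−0.48 ± 0.14, adjusted p = 0.0798), and *Lgals3* at 15.53, 15.45 and 15.12 against 15.00 and 15.01 (−0.36 ± 0.11, adjusted p = 0.0870). In both genes control replicate 3 was the lowest control, as for *Mmp12*, and without it both passed (adjusted p = 0.00370 and 8.10e-05, with ranges up to 0.414 and 0.467).

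*Spp1* was at 7.53, 7.20 and 7.63 log2 in control samples and at 6.92 and 7.12 in deleted ones (−0.43 ± 0.13, adjusted p = 0.0783), and it passed without control replicate 2 (adjusted p = 0.0386, with a range up to 0.509). *Fabp5* was at 9.13, 8.90 and 9.47 against 8.65 and 8.74 (−0.47 ± 0.15, adjusted p = 0.0894). *Itgax* was the lowest member, at 5.87, 5.92 and 6.08 against 5.83 and 5.89, with overlapping groups and a difference of −0.09 ± 0.07 (adjusted p = 0.502).

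**Figure D4:**
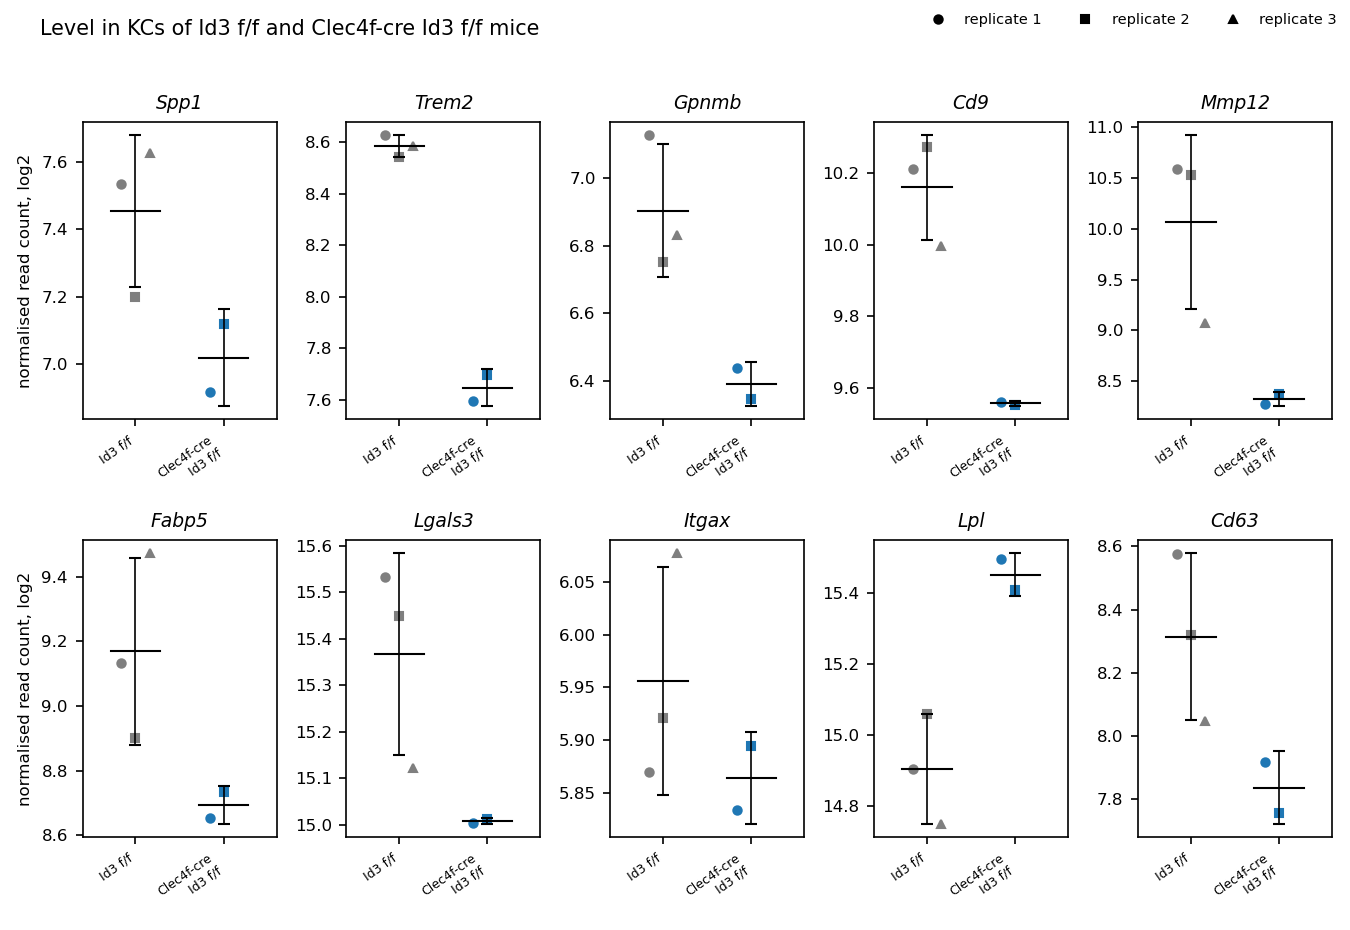
Level of each of the 10 genes (log2 of the normalised read count) in 3 control (*Id3* f/f) and 2 deleted (*Clec4f* cre*Id3* f/f) samples of KCs, with symbols for replicates, and mean and SD as lines. Axes differ between genes. *Trem2* is at 8.54 to 8.63 in controls and at 7.60 and 7.70 after deletion, *Lpl* is higher in both deleted samples, and *Itgax* overlaps.

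In the wider list of lipid-associated macrophage genes, 10 of 27 tested genes fell with *Id3* deletion and 1 rose, with a median of −0.29. Of all tested genes, 3.37% fell and 3.08% rose, with a median of 0.00142. The largest falls were those of *Cstb*, *Apoe* and *Ctsd* (−0.62 ± 0.11, −0.62 ± 0.05 and −0.62 ± 0.07 log2), an inhibitor of cathepsins, the apolipoprotein and a lysosomal protease, and the rise was that of *Abcg1*, a cholesterol exporter (0.56 ± 0.10). *Apoe* was the most abundant of them, at a mean of 19.87 log2 in control and 19.25 in deleted KCs. Thus *Lpl* and *Abcg1* were higher, while *Trem2*, *Tyrobp*, *Cstb*, *Apoe* and *Ctsd* were lower.

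Of the other relatives, *Lgals9* and *Lgals1* fell among 8 galectins (−0.52 ± 0.08 and −0.37 ± 0.08 log2), *Cd37*, *Tspan31* and *Tspan3* fell and *Tspan14* rose among 12 tetraspanins (−0.45 ± 0.10, −0.37 ± 0.08, −0.36 ± 0.09 and 0.41 ± 0.09). Of the integrin chains that pair with or resemble CD11c, *Itgb2* and *Itgal* rose (0.57 ± 0.08 and 0.43 ± 0.11), and of the osteopontin receptors *Itgb1* rose (0.41 ± 0.08). The 5 genes most like *Mmp12* over the 5 samples were *H2-T3*, *Rpl29*, *Gm10499*, *Prss29* and *Tomm20* (r of 0.999, 0.999, 0.999, 0.999 and 0.998, of 12832 genes). Among the members *Lgals3* was closest (r of 0.991, place 26) and *Lpl* had the opposite sign (−0.638). These values carry the gap between genotypes and the low value of *Mmp12* in control replicate 3. They describe these samples only, and *Mmp12* helped to choose the set.

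Marker lists were read for genotype as well. Of 16 KC markers 3 rose, with *Adgre1* first (0.79 ± 0.08 log2), and 5 fell, with *Clec4f*, *Folr2* and *C1qa* first (−1.52 ± 0.06, −0.55 ± 0.11 and −0.42 ± 0.06). Of these, *Clec4f* is the gene that drives Cre in the deleted samples alone. Of the monocyte markers *Plac8* and *Ms4a4c* fell (−0.95 ± 0.10 and −0.86 ± 0.15), with sums of 195, 188 and 237 against 184 and 181, *Lyz2* the most abundant and *Vcan* without reads. Epithelial tumour markers summed to 0.421, 0.454 and 0.443 against 0.416 and 0.456, with 0 called and 7 of 19 without reads, among them *Krt20*, *Gkn1* and *Cldn18*. Neutrophil markers, with *Ly6g* without reads, and those of dendritic, stellate, B, T and NK cells had 0 calls. In the other lists 1 hepatocyte, 1 cholangiocyte and 1 endothelial marker rose (*Tat*, *Slc4a2* and *Pecam1*) and 2 endothelial ones fell (*Clec4g* and *Dnase1l3*). The part of these cells in the falls of *Trem2*, *Cd9* and *Gpnmb* was not tested.

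The genes lie on 9 chromosomes, *Gpnmb* and *Cd9* both on chromosome 6. In the GRCm38 annotation *Spp1* is at chr5:104435118-104441050 (+), *Trem2* at chr17:48346401-48354147 (+), *Mmp12* at chr9:7344381-7369499 (+), *Gpnmb* at chr6:49036546-49070929 (+), *Cd9* at chr6:125460266-125494791 (−) and *Lpl* at chr8:68880491-68907448 (+). Exons of *Spp1* overlap *Gm42793*, an unverified transcript on the same strand, and those of *Cd9* overlap *Gm26728* on the other strand. How such reads were counted was not given in the sources used here.

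Because several members rose together with tumour, the 250 bases before their transcription starts were searched on both strands for CANNTG (the E-box of basic helix-loop-helix factors), CACGTG (a form of the E-box, contained in it), TGANTCA (AP-1) and GAGGAAGT (bound by PU.1). RefSeq starts of GRCm38.p6 were matched for 8 of the 10 genes, with 2 starts each for *Spp1* and *Mmp12*, and not for *Fabp5* and *Lpl*. CANNTG was found before 7 of these 10 starts, and before 66.2% of 32851 starts of all genes. TGANTCA was found before the starts of *Trem2* and *Itgax* and the downstream start of *Mmp12*, and before 6.75% of all starts. The letters were TGAGTCA for *Itgax* and *Mmp12*. For *Trem2* they were TGAATCA, with an A where the AP-1 site has G or C. GAGGAAGT was found before the upstream starts of *Spp1* (at −113) and *Mmp12* (at −88, on the other strand), and before 2.44% of all starts, whereas CACGTG was before 0 of the 10 and 6.02% of all. The sequences before the starts of *Trem2* and *Itgax* and the upstream starts of *Spp1* and *Mmp12* are shown, 5′ to 3′ on the strand of the gene, with motif letters in capitals. A match is a description of these letters only.
*Spp1*, chr5:104434861-104435110 (+): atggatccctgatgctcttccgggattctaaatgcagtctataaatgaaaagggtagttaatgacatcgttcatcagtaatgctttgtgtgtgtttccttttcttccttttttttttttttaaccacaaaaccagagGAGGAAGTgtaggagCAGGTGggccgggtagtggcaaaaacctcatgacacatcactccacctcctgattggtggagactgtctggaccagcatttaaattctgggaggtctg
*Mmp12*, chr9:7344147-7344396 (+): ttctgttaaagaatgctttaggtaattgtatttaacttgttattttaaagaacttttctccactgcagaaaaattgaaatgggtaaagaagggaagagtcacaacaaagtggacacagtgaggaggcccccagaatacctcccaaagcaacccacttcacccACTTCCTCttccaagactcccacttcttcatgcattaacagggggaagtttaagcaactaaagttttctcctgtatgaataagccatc
*Trem2*, chr17:48346151-48346400 (+): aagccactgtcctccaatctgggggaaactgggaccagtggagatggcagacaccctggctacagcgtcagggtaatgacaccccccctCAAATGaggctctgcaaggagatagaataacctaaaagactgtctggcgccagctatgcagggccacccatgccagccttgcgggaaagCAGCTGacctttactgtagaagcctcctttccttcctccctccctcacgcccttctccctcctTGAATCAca
*Itgax*, chr7:128129300-128129549 (+): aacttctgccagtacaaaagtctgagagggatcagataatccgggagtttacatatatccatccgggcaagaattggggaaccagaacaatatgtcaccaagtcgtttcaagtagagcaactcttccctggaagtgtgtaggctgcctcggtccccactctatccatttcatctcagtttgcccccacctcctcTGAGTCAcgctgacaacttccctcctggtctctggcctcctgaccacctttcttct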

How the data were processed

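RNA of sorted KCs was amplified as cDNA without strand marking and sequenced. The submitters' notes say that the authors used STAR 2.7.10a, HTSeq and DESeq2 on mm10 (GRCm38). The study's methods name GRCm39 or mm10, with GENCODE M30, so that the build behind each table is not certain, while positions and lengths here are those of GRCm38. The deposited values were made by the authors on a log2 scale, separately for each of 3 tables. The values the authors deposited have the features of the regularized log of DESeq2, although files and columns name them counts and TPM. This scale draws genes with few reads towards their mean and understates their changes. Depth cannot be read from it.

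Each comparison was made within 1 table. Genes with a value of at least log2 of 10 in 3 samples (2 in the *Id3* table) were fitted in R 4.3.3 by limma 3.58.1 (trend option), adjusted by the method of Benjamini and Hochberg over all genes tested, and called at an adjusted p under 0.05. The script was tested on simulated data. Alternatives were no filter, a stricter filter (mean of at least log2 of 50), no trend, median centring, quantile normalization, the replicate number as a block, and each sample left out in turn. Samples are replicates by their labels and were taken as biological replicates, as the study's methods treat them. Samples with the same number deviated together in TIM4+CD206+ KCs (r across genes of 0.35, 0.56 and 0.15 for replicates 1, 2 and 3), so that the numbers were taken to pair them there.

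The members and lists were chosen with earlier results of these data known. Genes named are the 10 members, up to 3 rises and 3 falls per list and comparison among called genes, the most abundant gene and markers without reads of marker lists, genes that check genotype, sort and tumour, and the 5 genes most like *Spp1* and *Mmp12*. Outside this rule, *Xist*, *Ddx3y*, genes that overlap or copy a member, and the uncalled *Apoe*, *Tyrobp*, *Cd44* and *Cd81* were also named, with their values known. *Trac* and *Ighm* were not matched in the tables. Some genes and lists that were fitted are not reported here. Exon lengths came from GENCODE on GRCm38 and promoters from RefSeq. Python 3.11.15, numpy 2.4.6, pandas 2.3.3 and matplotlib 3.10.9 were used.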

Additional observations from a re-analysis of the deposited data

How the results depend on the processing

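Of the tested single-gene values under alternative settings, those that kept their direction and their side of the threshold were 96 of 108 in TIM4+CD206+ KCs, 92 of 108 in TIM4+CD206 high KCs, and for *Id3* deletion 81 of 99. *Fabp5* in TIM4+CD206 high KCs changed sign if replicate 1 of either group was left out, to 0.0949 (tumour-free) or 0.0450 (tumour-bearing), with a range of −0.43 to 0.0949 and no call in any setting. The other values that moved kept their direction.

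In TIM4+CD206+ KCs the number of genes called was 1026 with the replicate block and 231 to 1022 with a sample left out (the highest when tumour-free replicate 2 was out). For TIM4+CD206 high KCs it was 600 with the stricter filter and 579 to 3634 with a sample left out (the highest without tumour-free replicate 2), and the members called were 2 with no filter, 2 with the stricter filter and 2 to 5 with a sample left out. In the *Id3* comparison 477 genes were called with no filter and 17 to 1850 with a sample left out (17 and 19 without *Clec4f* cre*Id3* f/f replicates 1 and 2, 1850 without *Id3* f/f replicate 3), and 0 to 6 members. Fits without a sample of the deleted group assume that the lone sample varies like the controls. Apart from fewer samples or genes tested, the cause was not tested.

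Replicate numbers do not pair the samples in the other tables (r of −0.05, −0.13 and −0.05 for TIM4+CD206 high KCs, −0.07 and −0.10 for *Id3* deletion). There the replicate block gave 2089 genes and 8 members called with *Id3* deletion, a fit in which *Id3* f/f replicate 3 has no partner and drops out. In TIM4+CD206+ KCs the block changed no call of a member.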
